A study of Homo sapiens with 14 samples.

Results

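The 9 genes followed here encode the caveolins of the cell surface, the matrix protein fibronectin, its integrin receptors and 2 proteins of mesenchymal cells, and they were measured in LY2 cells, an endocrine-resistant breast cancer line derived from MCF-7 cells and labelled tamoxifen resistant. They were CAV1, CAV2, FN1, ITGA5, ITGB1, ITGAV, ITGB3, VIM and CDH2. The genes were taken as a named list, chosen with earlier results of these data known. Every probe set annotated to one of them was used. This gave 32 probe sets for 9 genes, out of 54613 probe sets and 19775 genes on the array. The platform was the Affymetrix HG-U133 Plus 2.0 array (14 hybridisations), on which a probe set is a group of short probes that together report 1 transcript or part of it. All cells had been maintained in 10 nM 4-hydroxytamoxifen, the active metabolite of the drug, and then kept without it for 72 hours before the experiment. They were transfected with 40 nM of an siRNA against the steroid receptor coactivator SRC-1, or with 40 nM of a scrambled control siRNA. A single siRNA product was named for SRC-1, so no second siRNA stands beside it. Loss of SRC-1 and other effects of that siRNA cannot be told apart, and knockdown below means treatment with it. After 24 hours the cells received either 100 nM 4-hydroxytamoxifen or ethanol vehicle (untreated) for 2 hours. Cells with control siRNA gave 4 untreated and 4 tamoxifen-treated arrays. Cells with SRC1 siRNA gave 4 untreated arrays but 2 tamoxifen-treated ones, which carried the replicate numbers 1 and 3. The labels call the replicates biological and say nothing of separate cultures, so p-values measure the spread between these arrays.

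Caveolae are flask-shaped pits of the plasma membrane, and caveolin-1 and caveolin-2 are the membrane proteins that coat them together with the cavins. Fibronectin is a secreted matrix glycoprotein that cells bind through integrins, receptors made of an alpha and a beta subunit. Integrin alpha 5 pairs with beta 1 to form the classical fibronectin receptor, while integrin alpha V pairs with beta 1, beta 3 and other beta subunits and binds fibronectin and vitronectin. Vimentin, encoded by VIM, is the intermediate filament of mesenchymal cells, and N-cadherin, encoded by CDH2, is an adhesion molecule that many carcinoma cells gain when they lose epithelial character. ITGA5 has been reported as a target of SRC-1, and the comparisons below describe it and its partners in cells given the siRNA against that coactivator.

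Signals are given in log2 units, and a difference of 1 is a doubling. Medians of the 14 arrays lay between 3.44 and 3.51, and the lowest 10% of probe-set means were below 1.77, near a floor at which differences are compressed. Signals called near the floor below were dim, and many of them lay above this 10% point. NCOA1, the gene of SRC-1, served as the check of the labels. In untreated cells the mean of its 4 probe sets was 7.70 ± 0.36 (SD, n = 4) with SRC1 siRNA and 8.997 ± 0.25 (SD, n = 4) with control siRNA, which is 59.4% lower (exact two-sided permutation test over 70 regroupings, p = 0.0286, the lowest possible). In tamoxifen-treated cells the mean was 7.74 ± 0.25 (SD, n = 2) against 9.06 ± 0.18 (SD, n = 4), 60.0% lower (exact two-sided permutation test over 15 regroupings, p = 0.133, the lowest possible). The groups did not overlap in either comparison. The 10 luminal breast epithelial markers measured were all above the array median, with a mean level between 12.4 and 12.5 on each array.

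The members differed widely in brightness. Each gene is represented below by its brightest probe set, and 16 of the 32 probe sets had a mean above 3.47, the median over all probe sets. ITGB1 (probe set 211945_s_at, mean 12.34) and ITGAV (202351_at, 11.79) stood above 97.8% and 95.8% of probe sets, and CAV2 (203324_s_at, 10.13) above 87.5%. FN1 (211719_x_at, 9.11), ITGA5 (201389_at, 7.96) and CAV1 (212097_at, 7.25) stood above 81.8%, 75.8% and 72.2% of probe sets. VIM (201426_s_at, 4.89) stood above 60.7%. ITGB3 (216261_at, 2.75) and CDH2 (203441_s_at, 2.55) lay below the median, at the 39.5th and 35.1st percentile, and all 7 probe sets of ITGB3 and both of CDH2 were dim in all groups. These percentiles place each probe set on the array and do not rank the genes by transcript number, since probes differ in how well they bind.

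In untreated cells, the caveolins, fibronectin and integrin alpha 5 were higher with SRC1 siRNA than with control siRNA. The common beta subunit ITGB1, ITGAV, ITGB3, VIM and CDH2 did not pass the test at their brightest probe sets. With the replicate number in the model, the brightest probe sets of CAV2 and FN1 kept the call and those of CAV1 (limma adjusted p = 0.0677) and ITGA5 (0.110) did not. Of the 32 member probe sets 11 were higher and 2 lower at an adjusted p under 0.05 (limma, Benjamini-Hochberg adjustment over all 54613 probe sets). That is 40.6% of the members, against 10.4% of all probe sets. With the replicate number in the model, 7 were higher and 0 lower, against 3.94% of all probe sets. By direction the shares over all probe sets were 4.99% higher and 5.36% lower. Counted by brightest probe set, 4 of 9 genes were higher and 0 lower, against 11.9% of all 19775 genes called and 5.97% called higher. With the replicate number in the model 2 of 9 were higher and 0 lower, against 4.76% of all genes called. The genes were chosen with earlier results of these data known. These shares, and those with tamoxifen below, are therefore a description and not a test. The 11 higher probe sets belong to CAV1, CAV2, FN1 and ITGA5 alone, and probe sets of the same gene read the same RNA. Over all probe sets, the deviations of same-numbered arrays from their group means ran opposite to each other (median correlation -0.334 over 18 pairs). Such a negative correlation makes a difference between groups vary more than a model of independent arrays allows, so every adjusted p and count given without the replicate number in the model may be too favourable to a call. In 11 member probe sets every SRC1-siRNA array lay above every control array and in 4 below it, against 7.92% and 8.31% of all probe sets. The median change over the 32 probe sets was 0.02, against -0.00 over all probe sets. RNA came from whole cultures, in which fewer cells of a type and less RNA per cell cannot be told apart.

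**Figure D1:**
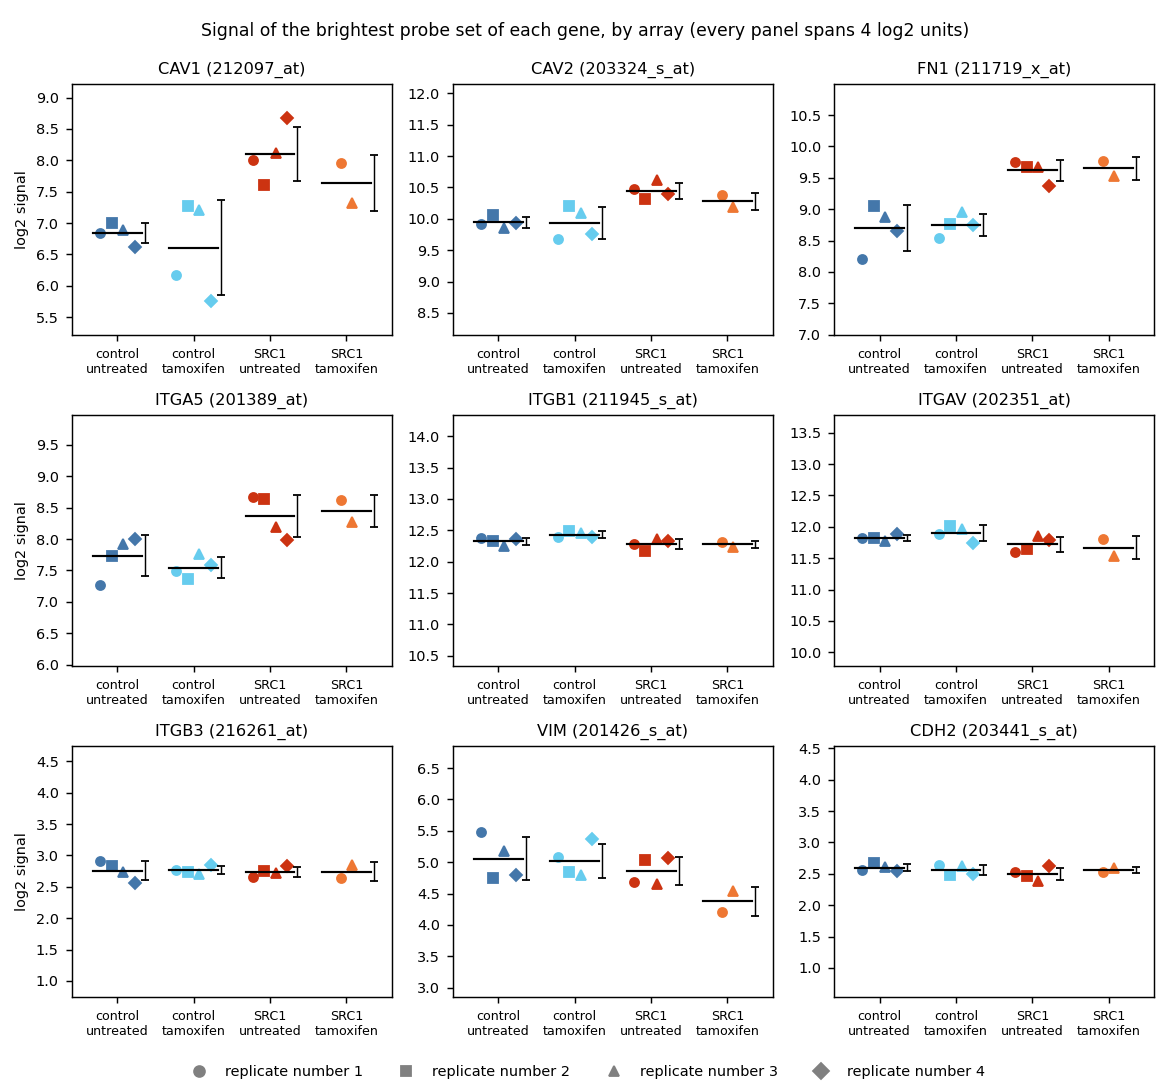
Each point is the log2 signal of 1 array at the brightest probe set of the gene, by group; horizontal lines are group means, bars are SD, marker shapes give the replicate number, and every panel spans 4 log2 units. In CAV1, CAV2 and FN1 all 4 untreated SRC1-siRNA arrays lie above all 4 untreated control arrays, whereas in ITGB1, ITGAV, ITGB3 and CDH2 all points lie close together.

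CAV1, the structural caveolin, changed most among the 9 genes at the brightest probe set. Its probe set 212097_at read 6.84, 7.00, 6.89 and 6.63 in control siRNA untreated replicates 1 to 4, and 8.00, 7.61, 8.11 and 8.67 in SRC1 siRNA untreated replicates 1 to 4. All SRC1-siRNA arrays were above all controls, and the spread was wider after knockdown. The means were 8.10 ± 0.44 (SD, n = 4) and 6.84 ± 0.16 (SD, n = 4), a change of 1.26 ± 0.31 (SE) or 2.40-fold (95% interval 0.59 to 1.93 on the log2 scale, limma adjusted p = 0.0212). The adjusted p was 0.0677 with the replicate number in the model. The change was 1.19 when control siRNA untreated replicate 4 was left out (limma adjusted p = 0.0564) and 1.07 when SRC1 siRNA untreated replicate 4 was (limma adjusted p = 0.0527). The other CAV1 probe set, the dimmer 203065_s_at, read 3.86, 3.98, 3.72 and 3.96 in control arrays and 4.91, 4.79, 4.80 and 4.32 in SRC1-siRNA arrays. It too had no overlap between the groups. It rose by 0.82 ± 0.12 (SE, limma adjusted p = 0.0013) and kept its call with the replicate number in the model (limma adjusted p = 0.0106).

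CAV2, the partner that oligomerises with caveolin-1, rose at all 3 of its probe sets. The brightest read 9.92, 10.07, 9.85 and 9.93 in control arrays and 10.47, 10.32, 10.62 and 10.40 in SRC1-siRNA arrays. The lowest SRC1-siRNA array was above the highest control. The change was 0.51 ± 0.11 (SE) or 1.42-fold (limma adjusted p = 0.0111, and 0.0378 with the replicate number in the model). Probe set 203323_at rose by 0.53 (limma adjusted p = 0.0068) and 213426_s_at by 0.38 (limma adjusted p = 0.0149, but 0.0625 with the term). CAV1 and CAV2 are neighbours on chromosome 7, where the end of CAV2 and the start of CAV1 lie 16468 bases apart in GRCh38.p14.

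FN1 rose at its 4 brightest probe sets. Probe set 211719_x_at read 8.21, 9.06, 8.88 and 8.65 in control siRNA untreated replicates 1 to 4 and 9.75, 9.67, 9.68 and 9.38 in the SRC1-siRNA arrays. Again no array of one group entered the range of the other, and control replicate 1 was the lowest of all. The means were 9.62 ± 0.17 (SD, n = 4) and 8.70 ± 0.37 (SD, n = 4), a change of 0.92 ± 0.15 (SE) or 1.89-fold (limma adjusted p = 0.0028, and 0.0117 with the replicate number in the model). Changes at 212464_s_at, 216442_x_at and 210495_x_at were 0.92, 0.94 and 1.13, each called with the term as well. Probe sets with the suffix _x_at can bind related sequences, and the 3 others here do not add independent samples, since all 4 read the same RNA.

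The remaining 3 FN1 probe sets did not all go the same way. Probe set 1558199_at, also annotated to FN1, read 5.26, 5.49, 5.001 and 5.50 in control arrays and 4.45, 4.44, 4.95 and 4.62 in SRC1-siRNA arrays. All 4 SRC1-siRNA arrays were below all controls. It fell by 0.70 ± 0.16 on the log2 scale (SE, limma adjusted p = 0.0164, and 0.0525 with the term). That call was lost without all arrays of replicate number 4 (limma adjusted p = 0.0870), and also when control siRNA untreated replicate 2 or SRC1 siRNA untreated replicate 1 or 2 was left out, where the highest adjusted p was 0.0517. Near the floor, 214702_at rose by 0.33 (limma adjusted p = 0.0296, but 0.109 with the term) from a mean close to 2, and 214701_s_at changed by 0.14 (limma adjusted p = 0.229). The call at 214702_at was also lost when any of 6 single arrays was left out. Averaged over all 7 probe sets, FN1 rose by 0.53 (limma adjusted p = 0.0036), a smaller change than at the brightest probe set.

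ITGA5, the fibronectin-receptor alpha subunit and reported SRC-1 target, has 1 probe set on this array. It read 7.27, 7.73, 7.93 and 7.99 in control siRNA untreated replicates 1 to 4, and 8.67, 8.63, 8.19 and 7.99 in SRC1 siRNA untreated replicates 1 to 4. The groups touched at replicate 4, where both arrays had the same value to 2 decimals, and the largest gap was at replicate 1. The means were 8.37 ± 0.34 (SD, n = 4) and 7.73 ± 0.33 (SD, n = 4), a change of 0.64 ± 0.18 (SE) or 1.56-fold (95% interval 0.26 to 1.02, limma adjusted p = 0.0355). The adjusted p was 0.110 with the replicate number in the model and 0.0685 when only these 8 arrays were fitted. The call was also lost without control siRNA untreated replicate 1 (0.49, limma adjusted p = 0.0891) or replicate 2 (0.64, 0.0747), and without SRC1 siRNA untreated replicate 1 (0.54, 0.103) or replicate 2 (0.55, 0.103).

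Integrin beta 1, the partner that alpha 5 needs at the cell surface, stayed within a narrow range. Probe set 211945_s_at read 12.37, 12.33, 12.25 and 12.36 in control arrays and 12.28, 12.17, 12.36 and 12.32 in SRC1-siRNA arrays. The groups overlapped. The difference was -0.05 ± 0.05 (SE), with a 95% interval of -0.16 to 0.07 and a limma adjusted p of 0.641. The 2 next brightest probe sets differed by 0.00 (1553678_a_at) and 0.12 (1553530_a_at, limma adjusted p = 0.569). Of the 4 dim ITGB1 probe sets, 216178_x_at was called lower by a small amount, from 2.45 to 2.24 (limma adjusted p = 0.0416), which is near the floor, and lost its call with the replicate number in the model, with median centring, when only these 8 arrays were fitted and when any of 7 single arrays was left out.

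The integrin alpha V gene ITGAV read 11.83, 11.82, 11.77 and 11.88 in control arrays and 11.59, 11.65, 11.85 and 11.78 in SRC1-siRNA arrays. These groups overlapped, and the difference of -0.11 ± 0.08 (SE) had a 95% interval of -0.27 to 0.06 (limma adjusted p = 0.428). None of the 7 probe sets of ITGB3, the beta 3 subunit, passed. Of the 7, 2 had an unadjusted p under 0.05 (limma), against 13857 of all 54613 probe sets. The brightest ITGB3 probe set read 2.56 to 2.92 in control arrays and 2.65 to 2.83 in SRC1-siRNA arrays, so these data say little about a gene that was dim throughout.

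VIM read 5.48, 4.75, 5.18 and 4.80 in control arrays and 4.68, 5.04, 4.65 and 5.06 in SRC1-siRNA arrays. The groups overlapped. The difference was -0.20 ± 0.17 (SE), with a 95% interval of -0.57 to 0.18 (limma adjusted p = 0.530). CDH2 read 2.55 to 2.68 in control arrays and 2.38 to 2.62 in SRC1-siRNA arrays, a difference of -0.10 (limma adjusted p = 0.330) at a dim level. Both are widely used mesenchymal markers, and neither passed the test in cells in which CAV1, CAV2 and FN1 were higher.

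**Figure D2:**
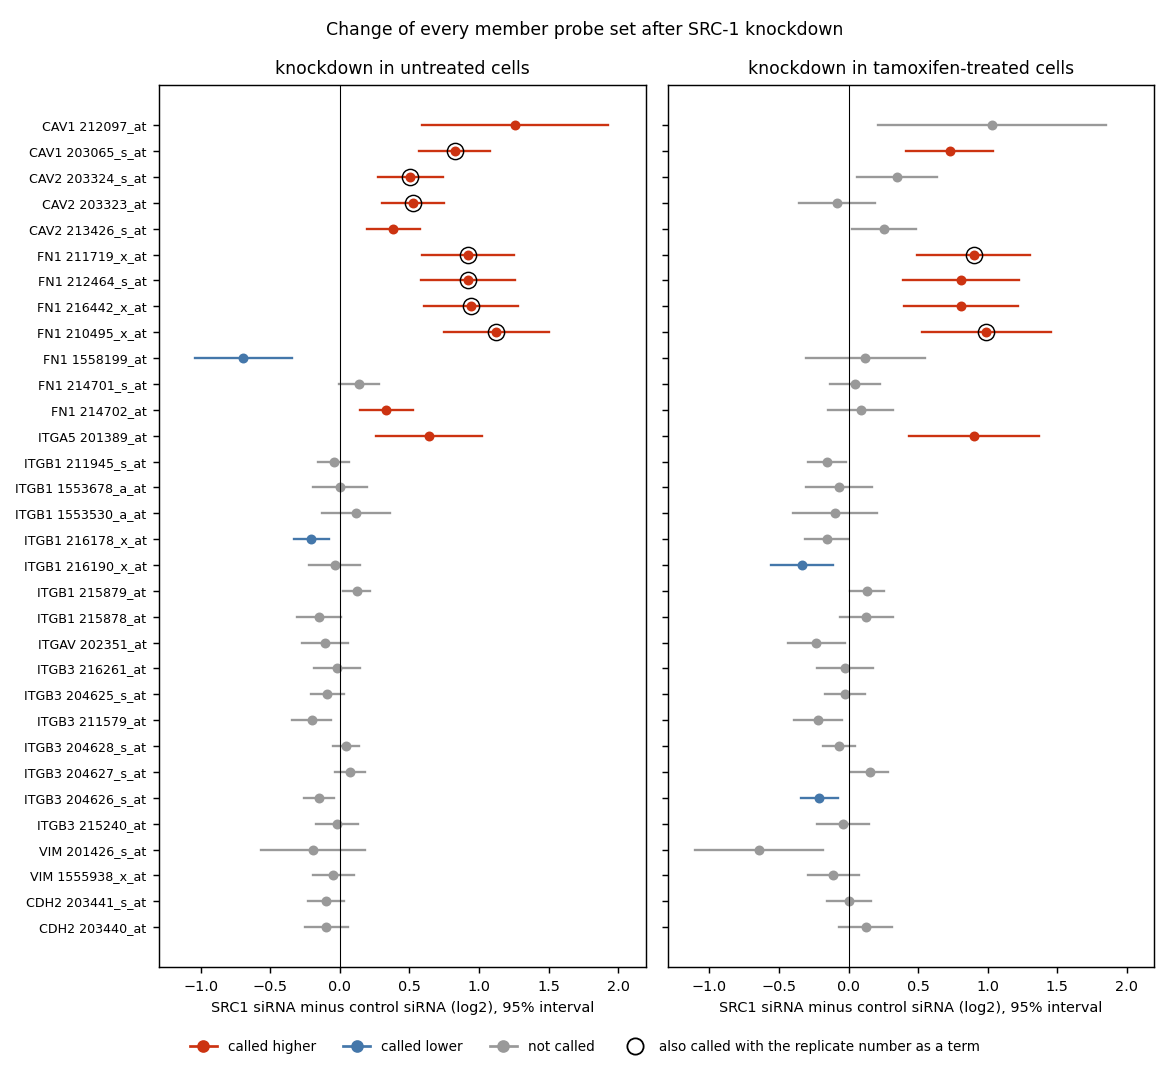
Points give the change of each of the 32 member probe sets (SRC1 siRNA minus control siRNA, log2) with its 95% interval, in untreated cells on the left and tamoxifen-treated cells on the right; red is called higher, blue called lower, grey not called, and a ring marks calls that held with the replicate number in the model. Of the 13 calls on the left 7 have a ring and of the 8 on the right 2 have one, and the calls below 0 are at FN1 1558199_at and at dim ITGB1 and ITGB3 probe sets.

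The differences between arrays that carry the same replicate number show how far 1 number decides a value. For CAV1 212097_at they were 1.16, 0.61, 1.23 and 2.04 at numbers 1 to 4. For FN1 211719_x_at they were 1.54, 0.61, 0.80 and 0.73, and for CAV2 203324_s_at 0.55, 0.25, 0.76 and 0.47. These 3 probe sets were higher at all 4 numbers, with the largest gap at a different number in each. The other CAV1 probe set, 203065_s_at, differed by 1.05, 0.81, 1.08 and 0.35. Its smallest gap was at number 4, where 212097_at had its largest. For ITGA5 they were 1.40, 0.90, 0.26 and -0.00. Without all arrays of number 4 the ITGA5 change was 0.85 (limma adjusted p = 0.0202). For VIM the differences were -0.80, 0.29, -0.54 and 0.26, with no common direction.

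**Figure D3:**
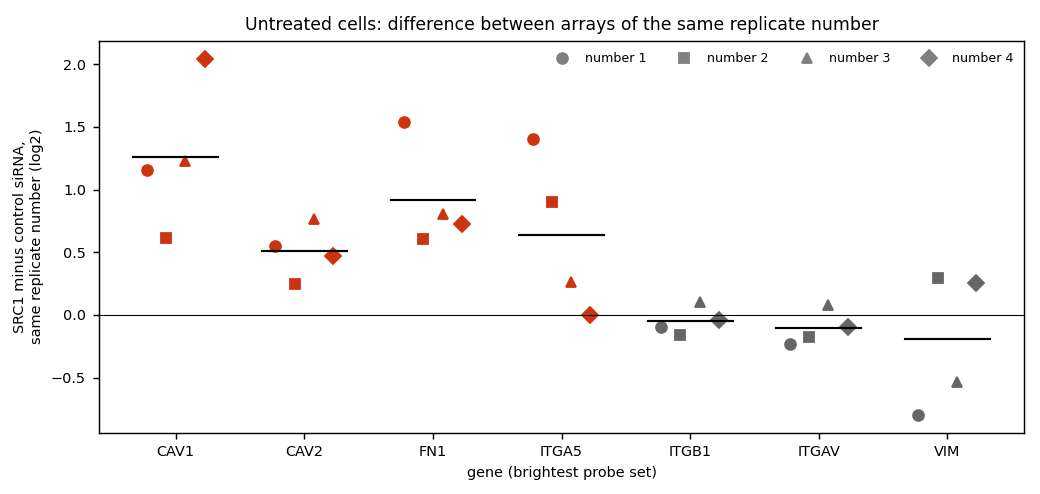
Each point is the log2 signal of an untreated SRC1-siRNA array minus that of the untreated control array of the same replicate number, at the brightest probe set of 7 genes; the horizontal lines are the means. CAV1, CAV2 and FN1 are above 0 at every number, ITGA5 falls to 0 at number 4, and ITGB1, ITGAV and VIM have points on both sides of 0.

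The starts of the 4 genes called higher in untreated cells at their brightest probe sets are shown to let their letters be compared. At those probe sets the calls of CAV1 and ITGA5 did not hold with the replicate number in the model. Each stretch covers 250 bases before the RefSeq gene start and the first 10 bases of the gene on GRCh38.p14, read 5′ to 3′ on the strand of the gene. The RefSeq promoter table held 8 of the 9 members. FN1 lies on the minus strand at chr2:215436059-215436318, ITGA5 on the minus strand at chr12:54419257-54419516, CAV1 on the plus strand at chr7:116524759-116525018 and CAV2 on the plus strand at chr7:116499488-116499747. Capitals mark a cAMP response element (TGACGTCA) or an AP-1 element (TGANTCA).
FN1: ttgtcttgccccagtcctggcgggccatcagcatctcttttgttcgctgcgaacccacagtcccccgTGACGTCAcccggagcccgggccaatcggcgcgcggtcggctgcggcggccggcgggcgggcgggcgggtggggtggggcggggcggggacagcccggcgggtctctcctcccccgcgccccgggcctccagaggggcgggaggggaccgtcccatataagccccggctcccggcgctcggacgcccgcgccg
ITGA5: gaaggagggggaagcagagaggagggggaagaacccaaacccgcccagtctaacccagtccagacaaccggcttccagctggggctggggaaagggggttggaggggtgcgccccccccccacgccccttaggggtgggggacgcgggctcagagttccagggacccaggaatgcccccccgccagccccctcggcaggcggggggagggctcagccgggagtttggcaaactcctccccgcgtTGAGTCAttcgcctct
CAV1: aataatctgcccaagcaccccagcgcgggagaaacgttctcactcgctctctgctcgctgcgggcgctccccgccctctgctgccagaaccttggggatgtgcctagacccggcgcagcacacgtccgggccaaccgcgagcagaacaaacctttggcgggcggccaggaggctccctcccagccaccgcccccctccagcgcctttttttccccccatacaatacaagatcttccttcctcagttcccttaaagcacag
CAV2: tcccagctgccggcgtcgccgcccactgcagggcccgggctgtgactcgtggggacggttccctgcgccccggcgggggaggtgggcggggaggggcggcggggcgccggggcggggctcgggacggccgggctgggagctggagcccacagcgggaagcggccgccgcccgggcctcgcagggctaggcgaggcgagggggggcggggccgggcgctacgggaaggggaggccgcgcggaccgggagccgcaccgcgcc

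Motifs were searched on both strands in windows of 300 bases that run 250 bases before and 50 after the gene start. FN1 held 1 cAMP response element, beginning 183 bases before the start, a motif found in 1.85% of 35116 such windows. ITGA5 held 1 AP-1 element, beginning 6 bases before the start, a motif found in 7.71% of windows. Neither motif was found in the windows of CAV1, CAV2, ITGB1 or ITGAV, so neither was common to the genes whose starts are shown. The GC box (GGGCGG), present in 44.9% of windows, occurred 3 times in CAV1, 6 times in CAV2, 6 times in FN1, 1 time in ITGA5, 3 times in ITGB1 and 0 times in ITGAV. The CCAAT box (CCAAT), present in 34.6% of windows, occurred once in FN1 and in none of the other 5 genes just named. A match of letters is a description and was not tested as a binding site.

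Other genes of the same structures were counted from lists of 121 genes, of which 111 were measured, each by its brightest probe set. The share of all genes called by brightest probe set, 11.9%, is the figure to read these counts against. Of 10 further caveola components 0 were higher and 2 lower. CAVIN1, the coat protein that caveolae require, fell by 0.68 ± 0.11 on the log2 scale (SE, limma adjusted p = 0.0022), from a mean of 4.25 to 3.58. EHD2, the ATPase at the caveolar neck, fell by 0.76 ± 0.14 (SE, limma adjusted p = 0.0044), from 6.44 to 5.68. Both calls held with the replicate number in the model. The cavins CAVIN2 and CAVIN3 and the muscle caveolin CAV3 were near the floor. CAVIN1 and EHD2 were thus lower in the arrays in which CAV1 and CAV2 were higher, and the median change of the 10 components was -0.14.

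Of 20 other integrin subunits 2 were higher and 0 lower. These were ITGA2, a collagen receptor subunit (0.37 ± 0.06 SE, limma adjusted p = 0.0019), and ITGA3, a laminin receptor subunit (0.38 ± 0.07 SE, limma adjusted p = 0.0032), and both held with the term. Like ITGA5 they are alpha subunits that pair with beta 1, but so are others among the 18 that did not pass. The median change of the 20 was -0.08. Of 17 other matrix proteins and integrin ligands 0 were called in untreated cells. Of 23 focal adhesion proteins, which link integrins to actin, 0 were higher and 3 lower. PARVB (-0.83, limma adjusted p = 0.0071) held with the term, while FERMT1 (-0.53, limma adjusted p = 0.0195) and TLN2 (-0.38, limma adjusted p = 0.0349) did not. The focal adhesion kinase PTK2 differed by -0.03 (limma adjusted p = 0.734) and paxillin, PXN, by 0.06 (limma adjusted p = 0.637).

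Among 9 other cadherins and catenins, plakoglobin, JUP, rose by 0.31 (limma adjusted p = 0.0044) and held with the term. E-cadherin, CDH1, fell by 0.27 (limma adjusted p = 0.0086, but 0.0588 with the term) from a high mean of 12.99, and CDH6 was called higher near the floor (0.22). Among 21 transcription factors of the epithelial to mesenchymal transition and intermediate filaments, 2 were higher and 4 lower. Synemin, SYNM, an intermediate filament protein that assembles with vimentin, rose by 1.70 ± 0.20 (SE, limma adjusted p = 5.4e-04), from 8.23 to 9.94, and keratin 8, KRT8, by 0.31 (limma adjusted p = 0.0351). OVOL2, a repressor of the transition (-0.52), nestin, NES (-0.49), peripherin, PRPH (-0.42), and TWIST2, which was near the floor (-0.24), were lower. SYNM and OVOL2 alone of these 6 held with the term. The factors SNAI1 (0.12), SNAI2 (-0.09), TWIST1 (0.06), ZEB1 (0.13) and ZEB2 (-0.27) did not pass, and all but ZEB2 were below the median signal. Of 11 genes of the TGF-beta pathway 0 were higher and 2 lower, the ligand TGFB2 (-0.44, limma adjusted p = 0.0026, which held with the term) and the receptor TGFBR1 (-0.24, limma adjusted p = 0.0186, which did not). FERMT1, TLN2, CDH6, KRT8, NES, PRPH, TWIST2 and TGFBR1 each lost the call without SRC1 siRNA untreated replicate 1, among other single arrays.

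**Figure D4:**
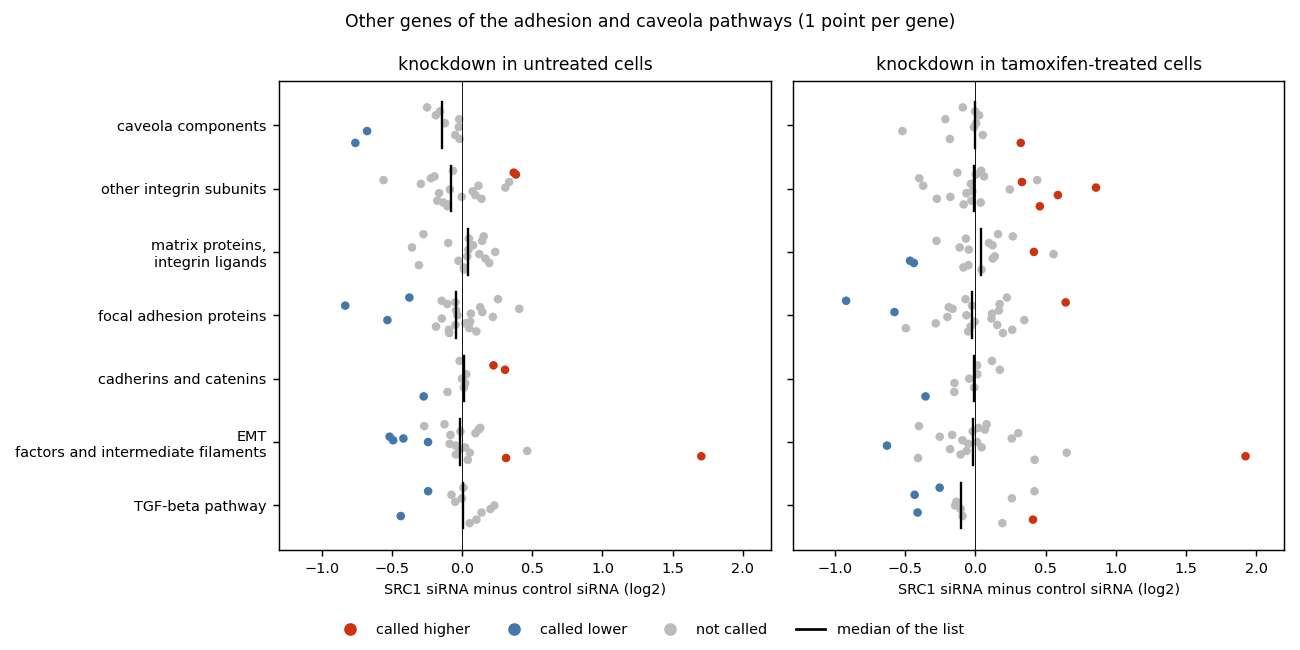
Each point is the change (SRC1 siRNA minus control siRNA, log2) of 1 gene at its brightest probe set, in 7 lists, for untreated cells on the left and tamoxifen-treated cells on the right; red is called higher, blue called lower, grey not called, and black bars are list medians. Most points lie close to 0 and SYNM, at 1.70 and 1.92, stands farthest from it on both sides.

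In tamoxifen-treated cells, FN1 and ITGA5 were higher with SRC1 siRNA at their brightest probe sets, and the caveolins only in part. Of the 32 member probe sets 6 were higher and 2 lower (limma), 25.0% of the members against 13.5% of all probe sets called. The shares over all probe sets were 5.76% higher and 7.7% lower. By brightest probe set 2 of 9 genes were higher and 0 lower, against 15.2% of all genes, and with the replicate number in the model 1, FN1, was higher, against 2.7% of all genes. In 11 member probe sets both SRC1-siRNA arrays lay above all 4 controls and in 5 below, against 14.9% and 21.1% of all probe sets. With 2 arrays in 1 group, these calls rest on few values. Without SRC1 siRNA tamoxifen replicate 1, when the lone array left is assumed to vary like the other groups, 1 of the 32 was called. With the replicate number in the model 2 were, against 2.24% of all probe sets.

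ITGA5 read 7.48, 7.36, 7.75 and 7.59 in control siRNA tamoxifen replicates 1 to 4, and 8.63 and 8.27 in SRC1 siRNA tamoxifen replicates 1 and 3. Here the groups did not overlap. The means were 8.45 ± 0.25 (SD, n = 2) and 7.55 ± 0.17 (SD, n = 4), a change of 0.90 ± 0.22 (SE) or 1.87-fold (95% interval 0.44 to 1.37, limma adjusted p = 0.0171). The adjusted p was 0.0946 with the replicate number in the model, and without SRC1 siRNA tamoxifen replicate 1 the change was 0.72 (limma adjusted p = 0.167). The order of its group means was SRC1 siRNA with tamoxifen, SRC1 siRNA untreated, control untreated and control with tamoxifen, and the 2 groups of the same siRNA overlapped each other.

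FN1 211719_x_at read 8.53, 8.76, 8.96 and 8.75 in control arrays with tamoxifen, and 9.77 and 9.53 in SRC1-siRNA arrays with tamoxifen. Both SRC1-siRNA arrays were above all controls. The change was 0.90 ± 0.19 (SE) or 1.87-fold (limma adjusted p = 0.0094, and 0.0414 with the term). It was not called without SRC1 siRNA tamoxifen replicate 1 (limma adjusted p = 0.105), and the 3 next brightest probe sets were not either. Probe sets 212464_s_at (0.81), 216442_x_at (0.81) and 210495_x_at (0.99) were higher with all arrays in the fit, and of these 210495_x_at alone was called with the term (limma adjusted p = 0.0497). Probe set 1558199_at, which fell in untreated cells, differed by 0.12 here (limma adjusted p = 0.728). The mean of all 7 probe sets rose by 0.54 (limma adjusted p = 0.0095).

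CAV1 212097_at read 6.18, 7.27, 7.21 and 5.76 in control arrays with tamoxifen and 7.95 and 7.32 in SRC1-siRNA arrays. The groups did not overlap, but control arrays 2 and 3 came close to SRC1-siRNA replicate 3, and the controls were spread over more than 1 log2 unit. The change of 1.03 ± 0.38 (SE) did not pass (95% interval 0.21 to 1.85, limma adjusted p = 0.0889). The dimmer probe set 203065_s_at read 3.91, 4.14, 4.15 and 4.25 in controls and 4.71 and 4.97 in SRC1-siRNA arrays. It rose by 0.73 (limma adjusted p = 0.0075, but 0.0529 with the term and 0.0720 without SRC1 siRNA tamoxifen replicate 3). The mean of both probe sets rose by 0.88 (limma adjusted p = 0.0082).

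None of the 3 CAV2 probe sets passed in tamoxifen-treated cells with all arrays in the fit. The brightest read 9.67, 10.20, 10.09 and 9.75 in controls and 10.37 and 10.18 in SRC1-siRNA arrays, a difference of 0.35 ± 0.13 (SE, limma adjusted p = 0.102). Those groups overlapped at 1 control array. Probe set 213426_s_at differed by 0.26 (limma adjusted p = 0.133) and 203323_at by -0.08 (limma adjusted p = 0.714). The brightest was called without control siRNA tamoxifen replicate 2 (0.44, limma adjusted p = 0.0447), and 213426_s_at without all arrays of number 4 (0.32, limma adjusted p = 0.0435). A call in untreated cells and none here does not show a difference between the treatments, and the interaction below tests it.

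ITGB1 211945_s_at read 12.39, 12.49, 12.45 and 12.39 in controls and 12.32 and 12.24 in SRC1-siRNA arrays with tamoxifen. Both SRC1-siRNA arrays were just below all controls, and the difference of -0.15 ± 0.06 (SE) did not pass (limma adjusted p = 0.131). ITGAV differed by -0.23 (95% interval -0.44 to -0.03, limma adjusted p = 0.122). The 2 members called lower were the dim probe sets ITGB1 216190_x_at (-0.33, limma adjusted p = 0.0484) and ITGB3 204626_s_at (-0.21, limma adjusted p = 0.0374). Both sat near the floor, at 1.95 and 2.10 in SRC1-siRNA arrays, and lost the call with the replicate number in the model, with quantile normalization, when only the 6 arrays compared were fitted and without all arrays of number 4. The first was also lost when any of 12 single arrays was left out, and the second when any of 4 was.

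VIM read 5.09, 4.84, 4.79 and 5.38 in controls with tamoxifen and 4.21 and 4.54 in SRC1-siRNA arrays. Both SRC1-siRNA arrays were below all controls, and the difference of -0.64 ± 0.21 (SE) had a limma adjusted p of 0.0607. It was called with quantile normalization (-0.70, limma adjusted p = 0.0471), with median centring (-0.68, 0.0487) and without control siRNA untreated replicate 1 (0.0394). It was not called with the replicate number in the model, without all arrays of number 4 (-0.53, limma adjusted p = 0.116) or by the mean of its probe sets (-0.38, 0.0818). The call thus depends on the setting while the sign does not. CDH2 differed by 0.00 (limma adjusted p = 0.985).

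The wider lists in tamoxifen-treated cells are read against the 15.2% of all genes called by brightest probe set. Integrin subunits had 4 of 20 higher and 0 lower. They were ITGA2 (0.33), ITGA3 (0.46), the beta 8 subunit ITGB8 (0.59) and the leukocyte subunit ITGAM (0.86), which was close to the array median, and of these ITGA3 alone was called with the replicate number in the model. Caveola components had FLOT1 higher (0.32) and 0 lower, with CAVIN1 at -0.01 (limma adjusted p = 0.969) and EHD2 at -0.52 (limma adjusted p = 0.0589). Matrix genes had the proteoglycan AGRN higher (0.42) and the laminin chain LAMC1 (-0.44) and thrombospondin THBS1 (-0.47) lower of 17. Focal adhesion genes had TNS1 higher (0.64) and PARVB (-0.92) and VASP (-0.58) lower of 23. SYNM rose by 1.92 ± 0.25 (SE, limma adjusted p = 0.0010), OVOL2 fell by 0.63, and the other 19 genes of their list did not pass. In the TGF-beta list the secreted adhesion protein TGFBI was higher (0.41) and TGFB2 (-0.41), TGFBR1 (-0.43) and SMAD2 (-0.26) lower of 11. Among cadherins CDH5, near the floor, was lower (-0.36) of 9. Of the genes in this paragraph beyond ITGA3, those called with the term were SYNM, TGFBR1 and CDH5. Without SRC1 siRNA tamoxifen replicate 1 the calls that stood were those of SYNM, TGFBR1, CDH5 and VASP, and the ITGAM change ran from 0.40 to 1.32 as single arrays were left out.

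Tamoxifen itself, given for 2 hours, moved none of the members past the test. In control-siRNA cells 0 of 32 probe sets were called against 0.163% of all (limma). An unadjusted p under 0.05 was found for 4 of the 32, against 8585 of all 54613 probe sets, a larger share. In SRC1-siRNA cells 0 of 32 were called against 1.51% of all. Again 4 had an unadjusted p under 0.05, against 9178 of all 54613, a larger share. These comparisons use the same arrays as the knockdown comparisons, so their values are given side by side and are not independent of them. In control-siRNA cells CAV1 212097_at differed by -0.24 (95% interval -0.91 to 0.44), FN1 211719_x_at by 0.05 (-0.28 to 0.38) and ITGA5 by -0.18 (-0.57 to 0.20). In SRC1-siRNA cells the same probe sets differed by -0.46 (-1.28 to 0.36), 0.03 (-0.38 to 0.44) and 0.08 (-0.39 to 0.55). The intervals for CAV1 212097_at were wide and reached a fall of 0.91 in control-siRNA cells and 1.28 in SRC1-siRNA cells. Their upper ends, 0.44 and 0.36, hold for this probe set and for the fit without the replicate number. The other CAV1 probe set, 203065_s_at, was higher with tamoxifen at all 4 numbers in control-siRNA cells (0.05, 0.16, 0.43 and 0.29). In SRC1-siRNA cells it differed by -0.21 and 0.17 at numbers 1 and 3. ITGB1 211945_s_at had narrow bounds, with 0.10 (-0.01 to 0.22) in control-siRNA and -0.00 (-0.14 to 0.13) in SRC1-siRNA cells.

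The interaction, which asks whether the knockdown effect differed between tamoxifen and vehicle, was called for 0 of 32 member probe sets against 0.28% of all (limma). An unadjusted p under 0.05 was found for 4 of the 32, against 9444 of all 54613 probe sets, a larger share. For CAV1 212097_at it was -0.23 (95% interval -1.29 to 0.83, limma adjusted p = 0.846), for FN1 211719_x_at -0.02 (-0.55 to 0.51, 0.976) and for ITGA5 0.26 (-0.34 to 0.87, 0.664). The smallest p among the members belonged to CAV2 203323_at. It read 5.23, 5.55, 5.37 and 5.13 in untreated controls, 5.82, 5.78, 5.93 and 5.85 in untreated SRC1-siRNA arrays, 5.63, 5.68, 5.41 and 5.70 in controls with tamoxifen and 5.31 and 5.73 in SRC1-siRNA arrays with tamoxifen. Its interaction was -0.61 ± 0.16 (SE, unadjusted p = 0.0026, limma adjusted p = 0.104), while the brighter CAV2 203324_s_at had -0.16 (limma adjusted p = 0.675). FN1 1558199_at had 0.82 ± 0.26 (SE, unadjusted p = 0.0071, limma adjusted p = 0.148). The interaction is the change with tamoxifen (0.12) minus the change in untreated cells (-0.70), so its sign is no separate observation.

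Markers of other cell types were examined because caveolins and fibronectin are abundant in fibroblasts and endothelium. Of 12 fibroblast markers 2 were above the array median, COL1A1 (mean 10.92) and COL5A1 (6.04), and the other 10, among them DCN (2.01), LUM (1.67), PDGFRA (1.79), PDGFRB (2.60) and FAP (1.98), lay between 1.60 and 3.17. On the linear scale the summed fibroblast signal, nearly all of it COL1A1, was 1731 to 2016.5 in control untreated, 2012 to 2352 in SRC1 untreated, 1845 to 2260 in control tamoxifen and 2214 to 2292 in SRC1 tamoxifen arrays. In untreated cells 0 of the 12 were called and in tamoxifen-treated cells 1, COL5A1 (0.58, limma adjusted p = 0.0080, but 0.0626 with the replicate number in the model). Of 10 endothelial markers 1, EMCN (4.11), was above the median, and CDH5 (2.56), KDR (1.81) and TEK (1.64) were near the floor. PECAM1 was called higher in untreated cells (0.73, limma adjusted p = 0.0255, but 0.0862 with the replicate number in the model), from 2.89 to 3.62. The summed endothelial signal was 71.0 to 75.9 in control untreated and 75.4 to 78.9 in SRC1 untreated arrays. Those ranges overlapped, but the mean levels, 2.66 to 2.74 against 2.75 to 2.78, did not. With tamoxifen the sum was 68.9 to 79.4 in control and 64.5 to 75.1 in SRC1 arrays. The mean levels with tamoxifen were 2.67 to 2.74 and 2.55 to 2.69, which overlapped and lay lower with SRC1 siRNA. CDH5 was lower in tamoxifen-treated cells, as given above. Of 6 basal and myoepithelial markers 2, ACTA2 and MYLK, were above the median. In untreated cells 0 of the 6 were called and in tamoxifen-treated cells 1, MYLK, which was lower (-0.43, limma adjusted p = 0.0461, but 0.15 with the replicate number in the model). Of 10 immune markers 1, LYZ, was above the median, and 0 were called in either knockdown comparison. The summed immune signal was nevertheless higher in every SRC1 untreated array (54.5 to 57.1) than in every control untreated array (51.4 to 53.2), without overlap, with a mean level of 2.34 to 2.40 against 2.28 to 2.31 near the floor. With tamoxifen it was 53.7 to 57.9 against 51.2 to 53.9, and those ranges overlapped. The part of these small shifts in the member changes was not tested.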

How the data were processed

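Total RNA of LY2 cells was amplified with a NuGEN Ovation kit, labelled with biotin and hybridised to 14 arrays, per the labels' protocols. The deposited values, 1 per probe set and array, were made by the authors and are on a log2 scale, a base inferred from their range. How background, scaling and probe summary were handled is not given in the sources used here. R 2.9.2 is the one tool named, per the submitters' processing notes. Values were used as deposited. Of 54675 probe sets 62 array controls were left out. Of the 54613 others, 41091 carried 1 gene symbol, 1801 several (0 with a member among them) and 11721 none. The number of arrays limits the precision.

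Samples were grouped from the labels by siRNA and treatment. All 14 arrays entered 1 linear model of the 4 groups in limma 3.58.1 under R 4.3.3 (lmFit, eBayes), tested two-sided and called at an adjusted p under 0.05. NCOA1 was also compared by an exact permutation test. The code was tested on simulated data. Named are all members, NCOA1, at most 6 genes per list that passed in a knockdown comparison, by smallest p, the genes whose profiles lie closest to CAV1, FN1 and ITGA5, and defining markers. Members of lists that did not pass and are named with values (the cavins, CAV3, PTK2, PXN and 5 transition factors) were added as the best known of their lists after their values were seen. The members and lists were chosen with earlier results of these data known. Alternatives were the replicate number in the model, quantile normalization, median centring, leaving out dim probe sets, a fit restricted to the compared arrays, trended and robust eBayes, the mean of probe sets, leaving out all arrays of number 4, and leaving out each array. Same-numbered arrays were not known to share a culture, and the check of their deviations is given with the alternatives. Promoter sequences are from RefSeq, GRCh38.p14.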

Additional observations from a re-analysis of the deposited data

Results flagged for a closer look

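In 4 of 99 groups of 4 arrays, 1 array stood apart from the others by a gap above Dixon's 95% critical value for its group size, and chance alone flags about 1 in 20 groups. FN1 1558199_at read 5.54 in control siRNA tamoxifen replicate 1, with the nearest array at 4.99. The other 3 were at probe sets near the floor. ITGB3 211579_at read 2.27 in SRC1 siRNA untreated replicate 1, with the nearest at 2.48. FN1 214701_s_at read 2.25 in control siRNA tamoxifen replicate 3, with the nearest at 2.07, and FN1 214702_at read 1.71 in the same array, with the nearest at 1.94.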

How the results depend on the processing

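With the replicate block, in which the replicate number entered the model, probe sets called fell from 5653 to 2154 for the knockdown in untreated cells, from 7350 to 1224 with tamoxifen, from 89 to 1 for tamoxifen in control-siRNA cells, from 824 to 0 in SRC1-siRNA cells and from 153 to 0 for the interaction, and member calls from 13 to 7 and from 8 to 2. Over all probe sets, the deviations of same-numbered arrays from their group means correlated between -0.585 and -0.0421 (median -0.334, 18 pairs). The arrays were thus not independent of the replicate number, and the main fits, which leave it out, do not allow for this. With correlations below 0, fits without the number may give adjusted p-values that are too small. The cause of these correlations was not tested. Fitting only the arrays compared gave 4025 for the knockdown with tamoxifen, 2 for tamoxifen given to control-siRNA cells and 109 to SRC1-siRNA cells. Without all arrays of number 4 the counts were 24 and 159 for tamoxifen (control siRNA, then SRC1 siRNA) and 0 for the interaction. Without dim probe sets they were 246 for tamoxifen in SRC1-siRNA cells and 23 for the interaction, where fewer probe sets were tested. Median centring gave 35 for tamoxifen in control-siRNA cells, and for the knockdown with tamoxifen it called 2653 of 8019 higher in place of 3147 of 7350. Where a count moved, the cause was not tested. Leaving out each array gave 3626 to 5750 for the knockdown in untreated cells, 1390 to 7215 with tamoxifen, 1 to 68 and 3 to 879 for tamoxifen in the same order, and 7 to 346 for the interaction. Member calls ran from 9 to 13 and from 1 to 9. The NCOA1 difference ran from -1.40 to -1.16 untreated and from -1.50 to -1.15 with tamoxifen. Of 4535 alternatives for 218 single probe set results, 4147 kept direction and side of the threshold, 190 lost the call, 38 gained it, 0 reversed a call and 160 changed sign where neither value was called. Dim signals limit what can be said of ITGB3 and CDH2.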

Other observations

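Genes whose centred profile over the 14 arrays lay closest to that of a member were found by the root mean square difference in log2 units, as a description of likeness across these arrays. For CAV1 212097_at, whose SD over the arrays was 0.79, they were SYNPO2 (0.25), GBP3 (0.28), TAP2 (0.28), TRIM14 (0.29) and SAMHD1 (0.30). For FN1 211719_x_at, with an SD of 0.51, they were HLA-DQB1 (0.11), RAB27B (0.11), ST8SIA4 (0.12), HLA-E (0.12) and SPATS2L (0.14). For ITGA5, with an SD of 0.47, they were EXT1 (0.11), PPP1R15A (0.12), FAM162A (0.13), LY6E (0.13) and DIPK1A (0.14). No gene was among the closest 5 of more than 1 member. All 14 points share the 4 groups, so genes that differ between the siRNAs by a like amount come out close.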
